A study of Mus musculus with 2 samples.

Results

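The small proline-rich protein (Sprr) genes were followed in mouse epidermis in which the transcription factor SOX11 had been switched on for 12 h. Members were taken by name, as every non-control probe on the arrays that carried one of the symbols Sprr1a, Sprr1b, Sprr2b, Sprr2d, Sprr2e, Sprr2f, Sprr2h, Sprr2i, Sprr3 or Sprr4. This gave 10 probes for 10 genes, 1 probe each, among the 55676 probes and 34820 names measured on both arrays. RNA came from the epidermis of FVB/N pups at postnatal day 4.5. Both pups of a littermate pair carried K14-rtTA, a transgene in which the keratin 14 promoter drives a doxycycline-dependent activator, and both received doxycycline (Dox) for 12 h. Only the SOX11-induced pup also carried TRE-Sox11-FLAG, which that activator turns on, so that the transgene is driven in keratin 14 positive cells while RNA was taken from the whole epidermis. There were 2 such pairs, each hybridized to its own 2-colour array with the control in Cy3 and the SOX11-induced pup in Cy5. The dyes lay the same way on both arrays, so a dye effect and a genotype effect cannot be told apart within a probe.

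SPRR proteins are short, proline-rich precursors of the cornified envelope, the protein shell that replaces the plasma membrane of keratinocytes as they die at the skin surface. Transglutaminases cross-link them, together with loricrin and involucrin, through glutamines and lysines at their ends. Their genes lie side by side in the epidermal differentiation complex, and several are known to rise when the skin barrier is damaged or the epidermis is wounded.

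The promoters of the family were set beside each other because the Sprr2 members share their upstream sequence closely while the Sprr1 members do not. All 10 members matched an entry of RefSeq (GRCm38.p6), which gives 250 bases before and 50 after the start of each gene model. Across the 250 bases before the start, the 15 pairs of Sprr2 members were 66.8% to 90.0% identical, with Sprr2d and Sprr2e the most alike, and the 30 other pairs of members were 56.4% to 65.2% identical. Shown are the windows of 3 Sprr2 genes whose probes passed the test, of Sprr2i, which was not above background, and of both Sprr1 genes. The windows are chr3:92338935-92339139 (plus strand) for Sprr2d, chr3:92351938-92352142 (plus strand) for Sprr2e, chr3:92385480-92385684 (plus strand) for Sprr2h, chr3:92407786-92407990 (plus strand) for Sprr2i, chr3:92438818-92438929 (minus strand) for Sprr1b and chr3:92485882-92486031 (minus strand) for Sprr1a. Each is written 5′ to 3′ on the strand of its gene, and capitals mark the letters TGANTCA (AP-1), the octamer ATGCAAAT read on the other strand, and the letters TATAAA of a start-proximal box. The Sprr1b window stops short of the start, since RefSeq lists another start for that gene further upstream.
Sprr2d: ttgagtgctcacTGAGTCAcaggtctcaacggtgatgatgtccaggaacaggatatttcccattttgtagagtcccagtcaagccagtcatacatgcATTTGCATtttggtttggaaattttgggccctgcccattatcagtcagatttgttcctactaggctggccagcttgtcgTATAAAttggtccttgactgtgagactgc
Sprr2e: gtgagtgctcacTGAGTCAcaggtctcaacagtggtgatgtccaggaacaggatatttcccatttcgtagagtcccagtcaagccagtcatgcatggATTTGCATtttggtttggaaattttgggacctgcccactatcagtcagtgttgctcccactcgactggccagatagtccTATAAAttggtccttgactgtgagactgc
Sprr2h: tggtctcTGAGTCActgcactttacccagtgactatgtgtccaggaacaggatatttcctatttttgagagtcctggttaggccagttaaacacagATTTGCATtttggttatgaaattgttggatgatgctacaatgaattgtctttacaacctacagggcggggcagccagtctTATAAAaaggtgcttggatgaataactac
Sprr2i: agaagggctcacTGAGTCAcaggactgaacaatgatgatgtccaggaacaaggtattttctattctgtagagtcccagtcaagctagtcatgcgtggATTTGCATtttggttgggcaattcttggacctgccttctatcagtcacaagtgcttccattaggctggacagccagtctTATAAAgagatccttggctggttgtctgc
Sprr1b: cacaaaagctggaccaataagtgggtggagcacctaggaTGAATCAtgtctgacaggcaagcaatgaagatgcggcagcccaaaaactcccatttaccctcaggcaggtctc
Sprr1a: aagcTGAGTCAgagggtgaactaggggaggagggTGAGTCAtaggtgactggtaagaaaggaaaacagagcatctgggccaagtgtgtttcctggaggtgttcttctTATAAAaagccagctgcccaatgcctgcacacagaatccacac

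AP-1, the dimer of Fos and Jun proteins, and POU factors, which read the octamer, are known regulators of Sprr genes. On either strand of the full 300 bases, TGANTCA was found in 8 of the 10 members and in 7.81% of all 32851 promoters. The 8 were all but Sprr3 and Sprr4, and in the Sprr2 members the match began between positions -198 and -193 from the start. The octamer was found in 6 of 10 members, exactly the Sprr2 members, against 1.74% of all promoters. It began between positions -112 and -108 there, and TATAAA began at -29 in each of these 6. Outside the 10, Sprr2k had all these letters too, with TGANTCA at -196 and -182, the octamer at -109 and TATAAA at -29. Sprr2a1, Sprr2a2 and Sprr2a3 had none of them in their windows. Before the start, Sprr2a1 was 58% to 60.8% identical to the 6 Sprr2 members. TATAAA was found in 9 of 10 members against 13.6% of all promoters. The exception was Sprr4, whose RefSeq model begins at its start codon, so that its window may not lie before the start of transcription.

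Letters that SOX proteins can bind were searched next. ACAAAG was found in 1 member (Sprr2e) against 18.7% of all promoters, ACAATG in 5 members (Sprr2f, Sprr2h, Sprr2i, Sprr3 and Sprr1a) against 12.6%, and ACAATA in 0 members against 9.13%. GGGTGTGG, a site of the barrier factor KLF4, was found in 0 members against 3.56%, and its short core CACCC in 4 against 57.5%. AGGAAG, read by ETS factors, was found in 3 members against 35.4%. TGACNNNGC, the antioxidant response element through which NRF2 acts, was found in 2 members (Sprr2f and Sprr1a) against 12.4%, and the match in Sprr1a overlapped its upstream AP-1 match. Such matches describe the letters in this window alone. The octamer and AP-1 matches were present in Sprr2 genes that passed the test below and in Sprr2 genes that were not above background.

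**Figure D1:**
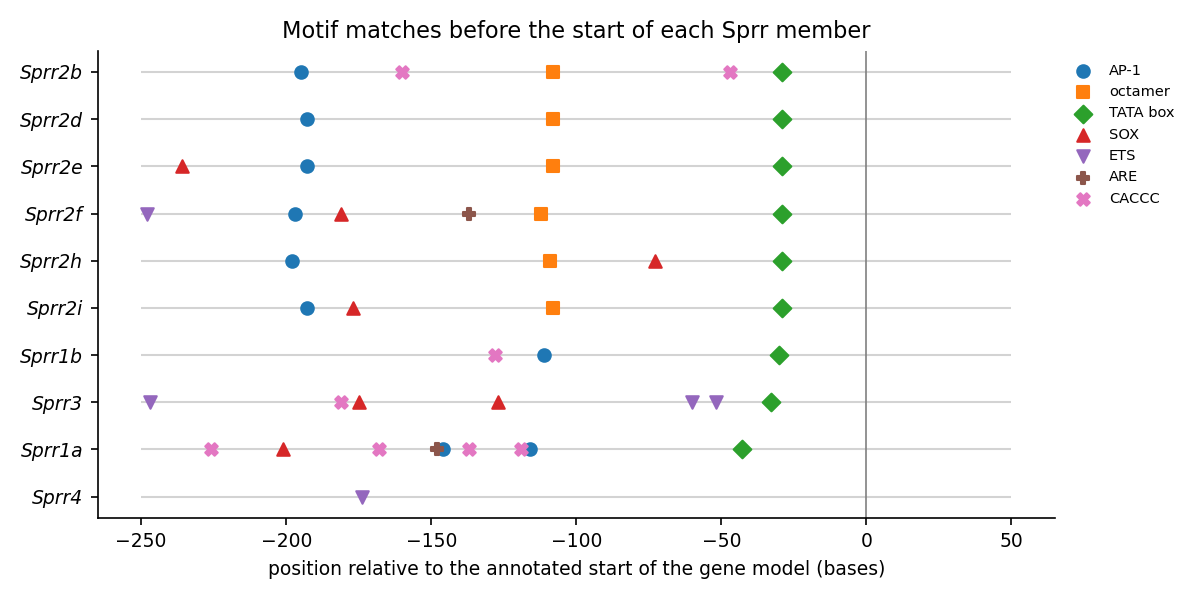
Matches of the searched letters in the RefSeq window of each Sprr member, with the position of the match in bases from the annotated start of the gene model on the x axis and 1 line per gene. The 6 Sprr2 members share an AP-1 match, an octamer and a TATA box at nearly the same places, and Sprr3 and Sprr4 have no AP-1 match. Sprr2 genes that are not members are not drawn.

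Per array, the share of spots well above background was 37.5% and 38.7% for the controls and 40.6% and 42.6% for the SOX11-induced pups. The number of arrays limits the precision, and an exact sign-flip test over 2 arrays cannot give a p under 0.5, so every adjusted p below comes from limma's moderated fit over all 55676 probes. Sox11 itself could not check the labels, since its probes at 28019541-28019600 and 28020087-28020146 on chromosome 12 were not well above background in either channel of either array. The pairs differed in sex-linked genes. Both Xist probes were above background in both pups of pair 1 and in neither pup of pair 2, and those of Ddx3y and Eif2s3y the other way round.

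Higher levels in SOX11-induced epidermis were measured for 4 of the 10 Sprr probes, those of Sprr2d, Sprr2e, Sprr2h and Sprr1b (adjusted p under 0.05). No Sprr probe was lower (0 of 10). Of all probes, 2.99% were higher and 1.41% lower by this test, and of the 21782 probes that at least 1 channel of each array showed above background, 6.78% were higher and 3.21% lower. The 4 also passed a linear 1.5-fold threshold, as did every probe called higher (2.99% of all probes), so this threshold adds nothing to the test. None of the 10 was past a mean log2 ratio of 1.5, a level that 0.453% of all probes passed in either direction. Ratios were positive in both pairs for 6 members, against 33.4% of all probes, and for 5 of the 6 measured above background, against 41% of such probes. The median log2 ratio of the 10 was 0.78 in pair 1 and 0.40 in pair 2, with 0.47 for the means of both pairs, against 0.006 over all probes. Of the 10, 5 were above background in both channels of both arrays, Sprr2e was so in the SOX11 channel alone, and 4 (Sprr2b, Sprr2f, Sprr2i and Sprr3) were not well above background anywhere. Over the 6 measured members the medians were 0.93 in pair 1, 0.65 in pair 2 and 0.81 for the means, against 0.039 over all probes above background. Sprr2e entered these 6 only through the SOX11 channel, where it was higher, so the filter favoured its sign in their count and medians.

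**Figure D2:**
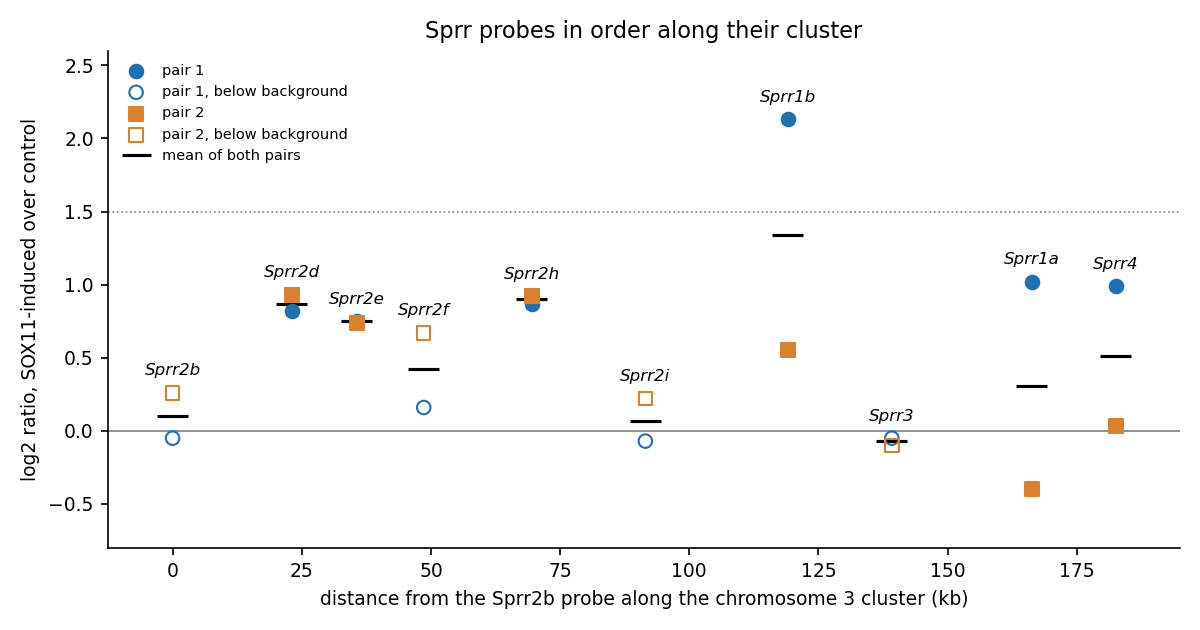
Log2 ratio of SOX11-induced over control for each Sprr probe in pair 1 (circles) and pair 2 (squares), against its distance in kb from the Sprr2b probe, with bars at the mean of both pairs. Open symbols are probes not well above background in either channel, and the dotted line marks a log2 ratio of 1.5. Sprr2d, Sprr2e and Sprr2h lie between 0.74 and 0.93 in both pairs, while the pairs are apart for Sprr1b, Sprr1a and Sprr4.

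The probes spanned 183 kb of chromosome 3 (mm9). All 6 Sprr2 members lay on the plus strand at the low end, and Sprr1b, Sprr3, Sprr1a and Sprr4 followed on the minus strand. From the Sprr2b probe at 0 kb, those that rose stood at 23.1 kb (Sprr2d), 35.6 kb (Sprr2e) and 69.5 kb (Sprr2h), with Sprr2f at 48.6 kb and Sprr2i at 91.5 kb.

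Sprr2d encodes an envelope precursor known to rise in keratinocytes under barrier stress. Its probe (92144721-92144780) had a normalized log2 intensity of 8.65 in the control and 9.46 in the SOX11-induced pup of pair 1, and of 10.24 and 11.16 in pair 2. Within each pair the SOX11-induced pup was the higher, but the control of pair 2 lay above the SOX11-induced pup of pair 1. The log2 ratios were 0.82 and 0.93, a mean of 0.87 ± 0.0788 (SD, n = 2), or 1.83-fold, with a 95% interval of 0.53 to 1.21 and an adjusted p of 0.0133 (limma). Before normalization the spot read 270 in Cy3 and 932 in Cy5 in pair 1, and 876 and 3830 in pair 2. Raw Cy5 signals were brighter than raw Cy3 signals for every Sprr member, and the loess step takes out the part of this that probes of like brightness share.

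Sprr2h, a further Sprr2 envelope precursor, gave nearly the same readings in both pairs. Its probe (92191160-92191219) stood at 10.20 and 11.07 in the control and SOX11-induced pups of pair 1 and at 10.22 and 11.14 in those of pair 2. Both SOX11-induced pups were above both controls. The log2 ratios were 0.87 and 0.92, a mean of 0.90 ± 0.0377 (SD, n = 2), or 1.86-fold, with a 95% interval of 0.56 to 1.23 and an adjusted p of 0.0115 (limma). The raw brightness was 770 and 2830 in pair 1 and 865 and 3760 in pair 2.

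Sprr2e, whose promoter was the closest to that of Sprr2d, was a dim probe. At 92157288-92157347 its raw brightness was 51.8 in the control and 144 in the SOX11-induced pup of pair 1, and 51.4 and 147 in pair 2. These readings include a background of 23 in Cy3 and 61 in Cy5 in pair 1, and of 24 and 58 in pair 2. The controls were not well above background and the SOX11-induced pups were, on both arrays. The log2 ratios were 0.75 and 0.74, with a 95% interval of 0.41 to 1.08 and an adjusted p of 0.0255 (limma). The fitted change was 1.68-fold with the offset of 16 used here. Because the controls were not well above background, the size of this change is uncertain, and it is not a lower bound. The size depends on the offset, since an offset of 50 gave a smaller mean log2 ratio of 0.48, and it is open to dye bias.

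The sizes of these rises hung on the scaling. With each array centred on its median in place of loess, the median of probes above background moved from 0.039 to 0.506, and the mean log2 ratios became 1.48 for Sprr2d, 1.53 for Sprr2h and 0.95 for Sprr2e. With the scanner software's processed signals the means were 0.84, 0.82 and 1.59, each at an adjusted p of 0.244 (limma), and no probe of the array passed (0 of 55676).

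The other Sprr2 members gave no usable ratio. Sprr2b (92121660-92121719) had log2 ratios of -0.05 and 0.26, and Sprr2i (92213134-92213193) of -0.07 and 0.22. Sprr2f, known as an estrogen-responsive gene of the uterus, had 0.16 and 0.67 at 92170259-92170318, with an adjusted p of 0.201 (limma). Raw brightness of these probes was between 34.9 and 42 in the control and between 63.0 and 80.5 in the SOX11 channel. The background in it was 21 to 26 in the control and 55 to 61.5 in the SOX11 channel. Neither channel was well above background, so no fold is given.

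**Figure D3:**
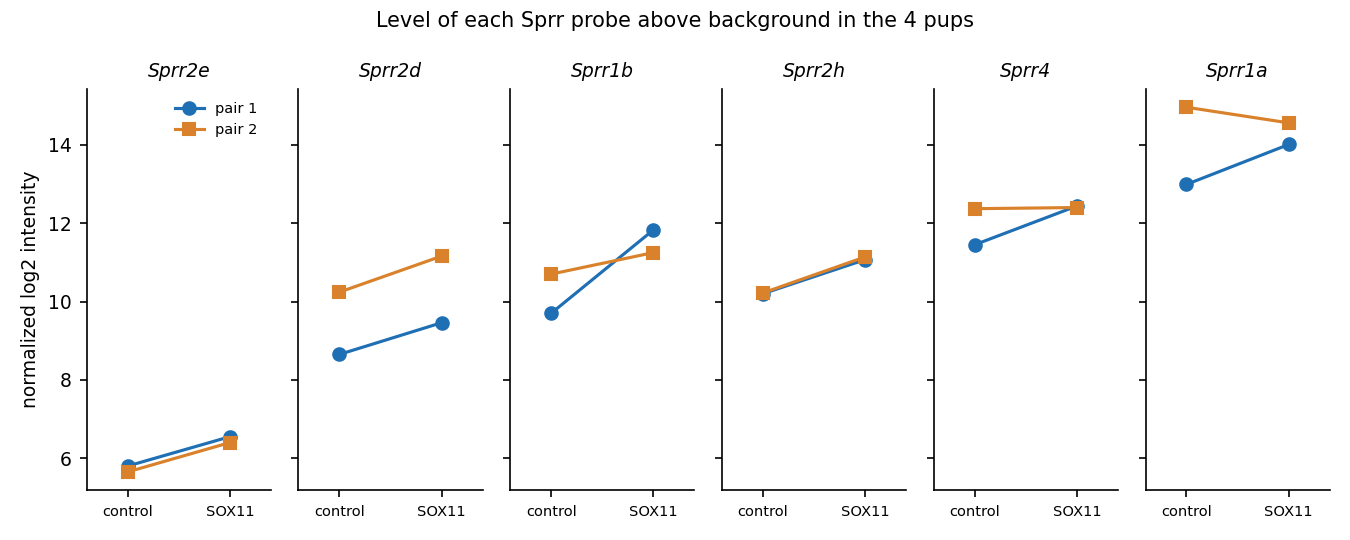
Normalized log2 intensity (loess within and scaling between arrays) of the 6 Sprr probes above background in the control and SOX11-induced pup of pair 1 (circles) and pair 2 (squares), with a line joining littermates. Both lines run upward in parallel for Sprr2d, Sprr2e and Sprr2h, whereas for Sprr1b, Sprr4 and Sprr1a the control of pair 2 starts above that of pair 1 and the lines draw together or cross. Brightness is not comparable between probes.

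Sprr1a and Sprr1b, also called cornifins, are the envelope precursors of the family best known from stressed and wounded epidermis. Sprr1b had the largest mean of the 10 members. Its probe (92240731-92240790) stood at 9.70 in the control and 11.83 in the SOX11-induced pup of pair 1, and at 10.7 and 11.25 in pair 2. Both SOX11-induced pups were above both controls, but by unequal steps. The log2 ratios were 2.13 and 0.55, a mean of 1.34 ± 1.12 (SD, n = 2), or 2.53-fold, with a 95% interval of 0.67 to 2.01 and an adjusted p of 0.0383 (limma). That spread between pairs was as large as or larger than that of 99.0% of probes above background. The call was lost when the fit held only probes above background (adjusted p = 0.0855) and with a trended, robust prior (adjusted p = 0.561), and with processed signals the adjusted p was 0.352. Pair 1 alone gave 2.13 and pair 2 alone gave 0.55.

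Sprr1a did not move one way. At 92287955-92288014 it stood at 12.99 and 14.01 in the control and SOX11-induced pups of pair 1 and at 14.96 and 14.56 in those of pair 2. The SOX11-induced pups lay between the controls. The log2 ratios were 1.02 and -0.40, a mean of 0.31 ± 1.00 (SD, n = 2), with a 95% interval of -0.31 to 0.93 and an adjusted p of 0.564 (limma). The raw brightness of 5000 and 21800 in pair 1 and of 21900 and 42500 in pair 2 was below saturation. With median centring the mean was 1.07 and passed the test (adjusted p = 0.00803, limma). That scaling called 12123 probes of the array higher, against 1662 with loess.

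Sprr4, a member described in epidermis after ultraviolet light, was clearly apart between littermates in pair 1 alone. Its probe (92304195-92304254) stood at 11.45 and 12.44 in the pups of pair 1 and at 12.37 and 12.40 in those of pair 2, so that the control of pair 2 was level with both SOX11-induced pups. The log2 ratios were 0.99 and 0.03, a mean of 0.51 ± 0.681 (SD, n = 2), with a 95% interval of 0.02 to 1.00 before adjustment and an adjusted p of 0.217 (limma). Median centring, which called 12123 probes of the array higher against 1662 with loess, gave 1.19 (adjusted p = 0.00179, limma). Sprr3, a gene of oral and esophageal epithelium, was not well above background (92260903-92260962), with log2 ratios of -0.05 and -0.10 and an adjusted p of 0.818.

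The control pups of the pairs lay apart in 4 of the 5 members that could be read in both. From pair 1 to pair 2 the control level was higher by 1.96 on the log2 scale for Sprr1a, 1.59 for Sprr2d, 1.00 for Sprr1b and 0.92 for Sprr4, and by 0.02 for Sprr2h. A difference of that size or more was seen in 1.07%, 1.53%, 3.32%, 3.94% and 94.5% of the 21782 probes above background. Between the SOX11-induced pups the same differences were 0.55 for Sprr1a, 1.70 for Sprr2d, -0.58 for Sprr1b, -0.04 for Sprr4 and 0.07 for Sprr2h. Sprr1a, Sprr1b and Sprr4 thus differed more in size between controls than between SOX11-induced pups, and for Sprr1b the directions were opposite. Sprr2d differed alike in both, and its ratios were close. These are single pups, and no test of the differences was made.

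Markers of the hair follicle moved between the pups in a like way. Of 20 measured follicle genes, 19 were above background (Shh was not), and the control of pair 2 was the higher for 19 of 20, with a median difference of 2.22 on the log2 scale. Their summed normalized intensity was 121000 in the control and 432000 in the SOX11-induced pup of pair 1, and 696000 and 549000 in pair 2. The median log2 ratio was 1.61 in pair 1 (19 of 20 positive) and -0.37 in pair 2 (2 of 20 positive), so that the sign was positive in pair 1 and negative in pair 2 as for Sprr1a. The part of follicle cells in the ratios of Sprr1a, Sprr1b and Sprr4 was not tested, and fewer cells of a type and less RNA per cell cannot be told apart in bulk epidermis. Sprr2d, Sprr2e and Sprr2h had like ratios in both pairs.

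The labelled tissue was checked in the same way, and all 9 epidermal markers were above background, with 2 lower in SOX11-induced epidermis, the basal-layer genes Col17a1 (-1.10, adjusted p = 0.00669, limma) and Krt15 (-1.03, adjusted p = 0.00573). The suprabasal keratins Krt1 (0.36 and 0.89, adjusted p = 0.0784, limma) and Krt10 (0.23 and 0.94, adjusted p = 0.119) were positive in both pairs and did not pass. They were the only 2 of the 9 epidermal markers to be so. Another 6 were negative in both pairs, namely Col17a1, Krt15, Krt5, Krt14, Itgb4 and Trp63. The median log2 ratio of the 9 was -0.31. Melanocyte markers (9 of 9 above background) summed to 10600 and 14300 in the pups of pair 1 and 9290 and 9370 in pair 2, and none of the 9 passed the test. Immune markers (8 of 9 above background, Lyz2 was not) summed to 31200 and 25400, and to 10700 and 8650, with none past the test. Dermal fibroblast markers (7 of 10 above background) summed to 4830 and 4080, and to 3540 and 3590, with 1 higher (Fbln1) and 2 lower (Thy1 and Dcn), and Lum, Pdgfra and Twist2 not above background. Of all probes, 2.99% were higher and 1.41% lower, and of probes above background 6.78% and 3.21%. Of the follicle genes 0 were higher and 1, Gata3, was lower. The part of these cells in the Sprr ratios was not tested.

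Further Sprr names on the array, outside the 10, were read for comparison. These were 7 probes for 5 names. Sprr2g (92179092-92179151), between Sprr2f and Sprr2h, had log2 ratios of 0.88 and 0.53, averaging 0.70 ± 0.247 (SD, n = 2), and passed the test (adjusted p = 0.0417, limma). It was the only 1 of the 7 to do so. Probes of Sprr2a2 did not go together, with -0.11 and -0.06 at 92060587-92060646 and -1.16 and 0.63 at 92058417-92058476, while the third was not above background. Sprr2a1 and Sprr2k were not above background, and Sprr2j-ps was so in both pups of pair 2 alone (-0.05 and -0.24, adjusted p = 0.624). Longest runs of bases that a member's probe shared with any other Sprr probe were 4 to 18 bases, and binding of a probe to another member's transcript was not tested. Of the other probes inside the cluster, AK178559 had 0.59 and 0.53 (adjusted p = 0.0698) and NAP061720-1 had -0.17 and -0.10 (adjusted p = 0.647), both above background.

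The genes that flank the cluster were read with it. Lelp1, a late envelope-like gene and the nearest named gene below the Sprr genes, had log2 ratios of 0.56 and 0.34 at its brighter probe (adjusted p = 0.134, limma). Prr9, a proline-rich gene next beyond Lelp1, had 1.52 and -0.02 (adjusted p = 0.184), with a control level higher in pair 2 by 1.94. Above Sprr4, 2310046K23Rik had 0.63 and -0.38, the split of Sprr1a, and its control level was also higher in pair 2, by 1.37. Involucrin (Ivl), a scaffold of the early envelope, had 0.36 and 0.38 at its brighter probe (adjusted p = 0.199) and 0.52 and 0.54 at the other (adjusted p = 0.0809). Loricrin (Lor), the main protein of the late envelope, had 0.50 and 0.49 (adjusted p = 0.0986). Smcp, beyond Ivl, was not above background (-0.10 and -0.46). Ivl and Lor were positive in each pair, as Sprr2d, Sprr2e and Sprr2h were, with smaller means that did not pass.

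Genes of the same chromosome region other than Sprr, most of them envelope genes, were measured for 34 of 38 listed names. Pglyrp3 and Smcp are among those that are not envelope genes. Filaggrin (Flg), Lce1j and Lce6a had no value, and Loricrin is another name of Lor. Of the 34, 6 were higher and 0 lower, with a median log2 ratio of 0.43. Of all probes above background, 6.78% were higher and 3.21% lower. Among the 6, the 4 with the largest change were Rptn, a filaggrin-like envelope protein (1.25 and 1.18, adjusted p = 0.00232), Pglyrp3, a peptidoglycan recognition protein (0.76 and 0.86, controls not well above background, adjusted p = 0.0183), and the late envelope genes Lce3c (0.91 and 0.57, adjusted p = 0.0332) and Lce3d (0.87 and 0.50, adjusted p = 0.0471). The means of Sprr2d, Sprr2e and Sprr2h lay within the range of means of the 34, -0.28 to 1.22, with the low end at Smcp, which was not above background. Among 18 enzymes and partner proteins of envelope assembly, 1 was higher and 0 lower (median 0.37). That one was S100a10, a calcium-binding protein that is cross-linked into envelopes (1.17 and 1.00, adjusted p = 0.00458). The transglutaminases, which join SPRR proteins to the envelope, did not pass, with 0.17 and 0.15 for Tgm1 (adjusted p = 0.58) and -0.47 and -0.42 for Tgm3 (adjusted p = 0.13).

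**Figure D4:**
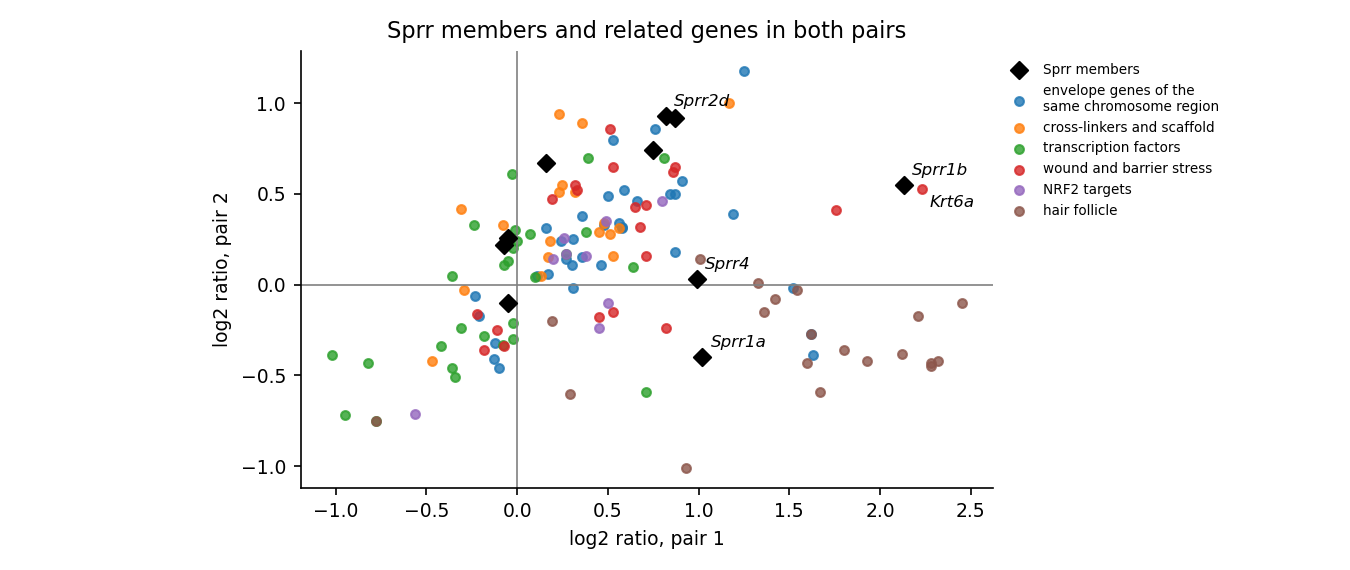
Log2 ratio (SOX11-induced over control) in pair 1 on the x axis and in pair 2 on the y axis for the 10 Sprr members (diamonds) and for genes of 6 lists (circles, 1 colour per list). Sprr2d, Sprr2e and Sprr2h lie at like values on both axes among genes of the same chromosome region, Sprr1b lies beside Krt6a, and Sprr1a lies below 0 in pair 2 as most hair follicle genes do.

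Of 28 transcription factors known to act on Sprr genes or on late epidermal differentiation, 1 was higher and 2 lower, with a median of 0.03. The shares over probes above background were 6.78% higher and 3.21% lower. Nfe2l2, which encodes NRF2, a driver of Sprr2 genes in keratinocytes, had 0.81 and 0.70 (adjusted p = 0.0245, limma). Pou2f3, an epidermal POU factor that reads the octamer, had -0.95 and -0.72 (adjusted p = 0.0177), and Gata3, which is also on the follicle list, -0.78 and -0.75 (adjusted p = 0.0232). Klf4, a factor of barrier formation, had -0.01 and 0.30 (adjusted p = 0.653), and the AP-1 gene Fosl1 had 0.00 and 0.24 (adjusted p = 0.704). Of 9 NRF2 targets, 0 were higher and 1 was lower, Gsr, glutathione reductase (-0.56 and -0.71, adjusted p = 0.0499), with a median of 0.22.

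Genes of wounded or stressed epidermis were measured for 20 of 22 names, with 4 higher, 0 lower and a median of 0.44. Of the 20, 14 were above background. The unmatched names Il36a and Il36g are other names of Il1f6 and Il1f9, which were measured. Krt6a, a keratin of wounded skin that is also made in the follicle, had 2.23 and 0.53, which averaged 1.38 ± 1.20 (SD, n = 2) and passed (adjusted p = 0.0421, limma). These ratios were close to those of Sprr1b, and the control of pair 2 was higher by 1.47 for Krt6a as it was by 1.00 for Sprr1b. The spread of Krt6a was larger than that of 99.1% of probes above background, and its call was not followed through the alternatives. Krt6b had 1.76 and 0.41, with a control higher in pair 2 by 1.07, and did not pass (adjusted p = 0.0554, limma). Krt16, a partner keratin of Krt6a, had 0.87 and 0.65 (adjusted p = 0.0267), the cytokine gene Il1f6 0.86 and 0.62 (adjusted p = 0.0294), and the serpin Serpinb2 0.51 and 0.86 (adjusted p = 0.0459). Across the 5 lists, 12 of 109 genes were higher and 3 lower, and 99 of the 109 were above background. The shares were 2.99% and 1.41% of all probes, and 6.78% and 3.21% of probes above background. No gene of these lists was past a log2 ratio of 1.5, which 0.453% of all probes passed.

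**Figure D5:**
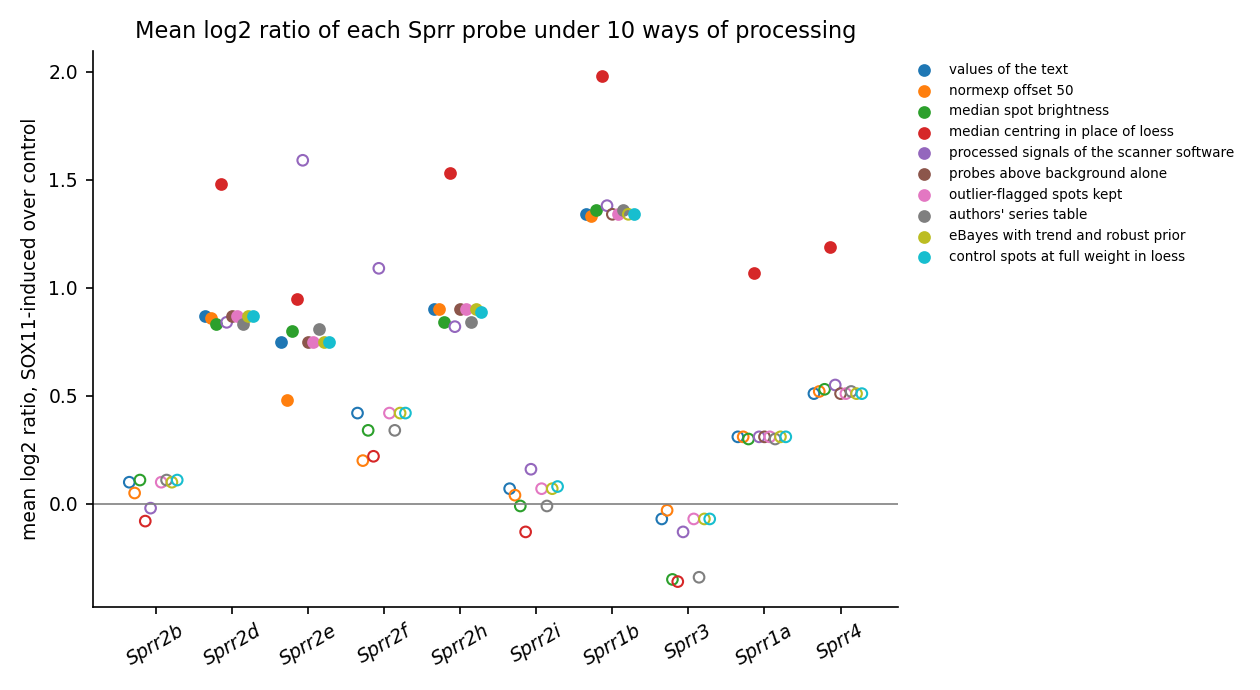
Mean log2 ratio of both pairs for each Sprr probe under 10 ways of processing, 1 colour each, with filled points at an adjusted p under 0.05 in that fit. Sprr2d, Sprr2e and Sprr2h are filled under all but the processed signals, Sprr1b is open under 3, and Sprr1a and Sprr4 are filled under median centring alone.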

How the data were processed

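Two-colour Agilent arrays of 2 littermate pairs were read from the scanner files. Per the file headers these come from Agilent Feature Extraction 10.7.3.1, with probe positions on mm9 and 1 scan time for both arrays. The deposited intensity values are spot and background brightness without normalization. The processed signals are intensity values that, per the file headers, the software corrected for background and dye. The log2 ratios in the authors' series table came out of normexp, a background model, and loess in limma. The table was rebuilt from median spot brightness with largest differences of 5.48e-05 and 0.000462 over 55681 probes, so that the ComBat step in the methods was not needed for it. The methods describe a colour swap that the labels do not show.

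Mean brightness was corrected by normexp (offset 16) and centred by loess with control spots at weight 0. Control spots and outlier-flagged spots (194 and 186) were then left out, and spots of a probe were averaged. An intercept was fitted to the log2 ratios of both arrays with limma 3.58.1 in R 4.3.3, with eBayes (prior degrees of freedom 8.34, prior SD 0.223) and Benjamini-Hochberg adjustment over 55676 probes. Adjusted p under 0.05 was the threshold, alone or with a mean log2 ratio past 1.5. Normalized log2 intensity per channel followed loess and Aquantile scaling between arrays. The script was tested on simulated data. Intervals are 95% intervals of the moderated fit, for 1 probe each. A probe counted as well above background where at least 0.5 of its spots were marked so. Each listed gene was read at its brightest probe. All 10 members kept their symbol when matched to RefSeq by accession. No protein sequence was analysed here.

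The members and gene lists were chosen with earlier results of these data known. Every member was to be named, with up to 4 genes from each list with the largest change among those that passed and were above background, the genes Ivl, Lor, Tgm1, Tgm3, Klf4, Fosl1 and Sox11 whatever their values, and the flanking genes. Markers of other cells are given as sums, and Xist, Ddx3y, Eif2s3y, Sprr2g, Sprr2a2, Sprr2j-ps, AK178559, NAP061720-1, Prr9, Smcp, Col17a1, Krt15, Krt1, Krt10, Krt6b, Fbln1, Thy1 and Dcn were named after their values were seen. The same holds for Krt5, Krt14, Itgb4 and Trp63. Alternatives were an offset of 50, median brightness, median centring, processed signals, a filter on dim probes, flagged spots kept, the series table, a trended prior and each pair alone. Control spots at full weight in loess were added after seeing the data.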

Additional observations from a re-analysis of the deposited data

How the results depend on the processing

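Higher calls for Sprr2d, Sprr2e and Sprr2h held under 8 of the 9 alternatives of processing, and that of Sprr1b under 6 of 9. Processed signals gave 0 higher Sprr probes, 0 past 1.5-fold and 0 and 0 listed genes higher and lower, in place of 4, 4, 12 and 3. Median centring gave 2 Sprr probes past a log2 ratio of 1.5 (Sprr1b and Sprr2h), 81 listed genes higher and 1 lower, a Sprr median of 1.01, and -0.08 for Sprr2b and -0.13 for Sprr2i. It moved the split of all calls from 1662 higher and 784 lower to 12123 and 6362, and probes past a log2 ratio of 1.5 from 252 to 756. Listed genes higher and lower were 33 and 8 with an offset of 50, 34 and 7 with the trended prior, and 6 and 1 with median brightness and with the authors' table. All probes higher and lower were 2850 and 1555 with the offset (177 past a log2 ratio of 1.5) and 2906 and 1733 with the trended prior. Probes above background alone gave a Sprr median of 0.81 over the 6 left, with Sprr2e kept through its SOX11 channel alone. Sprr2i was -0.01 with median brightness and with the authors' table, and Sprr2b -0.02 with processed signals. With each pair alone the Sprr median ran from 0.40 to 0.78. Sprr1a ran from -0.40 to 1.02, Sprr2b from -0.05 to 0.26 and Sprr2i from -0.07 to 0.22. Causes of these shifts were not tested. The fit rests on the difference within each littermate pair and so is itself paired, and no further block could be added. Signal over background limits Sprr2b, Sprr2f, Sprr2i and Sprr3, which could not be read in any pup, and Sprr2e, which could not be read in the controls.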
